A study of Homo sapiens with 26 samples.

Results

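Compounds 40, 41, 76 and 77, 4 small molecules described by the submitters as inhibitors of HIF-2a found in a chemical genetic screen, were compared as 1 class with control cells, to find the change that all 4 have in common. The members are the 12 arrays whose titles begin with one of these numbers, 3 per compound. They were set against 6 control arrays, 3 of cells labelled Blk and 3 of cells treated with the solvent DMSO, so 18 of the 26 arrays of the series enter. All arrays measured total RNA of 786-O cells, a human clear cell renal carcinoma line, on Affymetrix U133 Plus 2.0 arrays. Blk was taken as the untreated group by elimination from the series text. The compounds are known here only by their numbers, and the sources used here give no dose, treatment time or structure, so a difference between compounds cannot be told apart from a difference in dose or time. Whether the triplicates were separate cultures is not stated, and p-values therefore measure only the spread between arrays, which may be technical.

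786-O cells lack working VHL, the protein that marks the alpha subunits of the hypoxia-inducible factors for destruction, and therefore hold the transcription factor HIF-2a, the product of EPAS1, at a high level in normal oxygen. HIF-2a drives genes of blood vessel growth, glucose uptake and cell cycle entry in this tumour. Its mRNA carries an iron-responsive element, a hairpin also found in the ferritin and transferrin receptor mRNAs, where iron regulatory proteins bind and block translation or slow mRNA decay. A further pathway met in these data is that of NRF2, a factor held down by KEAP1 until electrophiles or oxidants release it, and which then raises genes of glutathione synthesis, quinone reduction and heme breakdown.

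Each probe set was given by its log2 signal after quantile normalization, and a gene by its brightest probe set that names 1 gene, which gave 14741 genes. The pooled comparison is the mean of the 4 compound means minus the mean of the Blk and DMSO means, so each compound counts equally. The shared comparison is stricter: a gene passes only if all 4 compounds moved it the same way and the weakest of the 4 still passed. The comparison between the compounds uses no control array. Genes were called in limma at an adjusted p below 0.05, adjusted over all 33539 probe sets kept. Signals below 20 were set to 20, called the floor here. An array averages over a whole culture, so a change in every cell and a change in some of the cells cannot be told apart.

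The arrays were alike in most respects. The mean deposited signal was 142.784 to 142.787 on 24 of the 26 arrays. Replicates 2 and 3 of compound 40 stood apart with 165.9 and 173.7, and with the highest ACTB 3 prime over 5 prime ratios of the 18 arrays, 1.32 and 1.25. The shared calls, the HIF-2a and NF-kB list counts, the WT8 comparison and the compound 40 values of VEGFA and CCND1 are also given without these 2 arrays. PAX8, a kidney lineage factor, had signals of 760.6 to 1270 on all 18 arrays, while the leukocyte genes PTPRC and CD14 and the endothelial gene VWF were at the floor on all 18. Other markers were not: the endothelial PECAM1 (45.49 to 117.3), the fibroblast COL1A1 (30.28 to 144.8) and the erythroid HBB (23.13 to 67.88) were above the floor on all 18, and TEK, also endothelial, on 15. The summed signal was 150.2 to 173.5 in the controls and 133.9 to 252.3 with the compounds for 5 endothelial markers, and 199.7 to 306.2 and 137.6 to 262 for 6 fibroblast markers, whose part in the results was not tested. Of the 6 fibroblast markers 1 was called, COL1A2, which was lower with the compounds (log2 change -0.54, adjusted p = 0.0486 in limma). Of 7 measured markers of renal tubule and clear cell carcinoma, 2 were lower with the compounds, against 4.9% of all genes. They were the cadherin CDH6 (log2 change -1.11, adjusted p = 0.0136) and the keratin KRT8 (-0.34, adjusted p = 0.0198). The summed level of the 7 was 12110 to 13480 in the controls and 11530 to 13310 with the compounds.

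With the 4 compounds pooled, 740 genes were higher (5.02% of those tested) and 723 were lower (4.9%), of which 70 were at least 2-fold higher and 83 at least 2-fold lower. Only a small part of this passed the shared comparison: 12 genes were higher with all 4 (0.0814%) and 7 were lower (0.0475%). A gene that did not pass may still have moved with every compound. With the replicate number as a block, an alternative described at the end, 167 probe sets passed, against 36 without it. Complete separation of the arrays was more frequent. In 103 genes (0.699%) all 12 compound arrays lay above all 6 control arrays, and in 100 (0.678%) all 12 lay below. DMSO alone against Blk gave 0 called genes (0%). Of the 33539 probe sets tested, 859 had an unadjusted p below 0.05 in limma, a share that is itself below 0.05. When no filter on dim probe sets was used, 3 probe sets were called.

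The 12 genes with a shared rise were, from the largest to the smallest change, GPC1, CLU, PTGR1, NQO1, BLVRB, ASPH, AOPEP, TTC14, MGST1, FTH1P5, TFRC and FTL. The 7 genes with a shared fall were TNFAIP6, CTHRC1, PPP1R14C, TNFSF10, PDZK1IP1, EFHB and OAS3. Of these 19, TNFAIP6, PPP1R14C and EFHB were too dim for the rule that chose names, and were added after their values were seen.

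**Figure D1:**
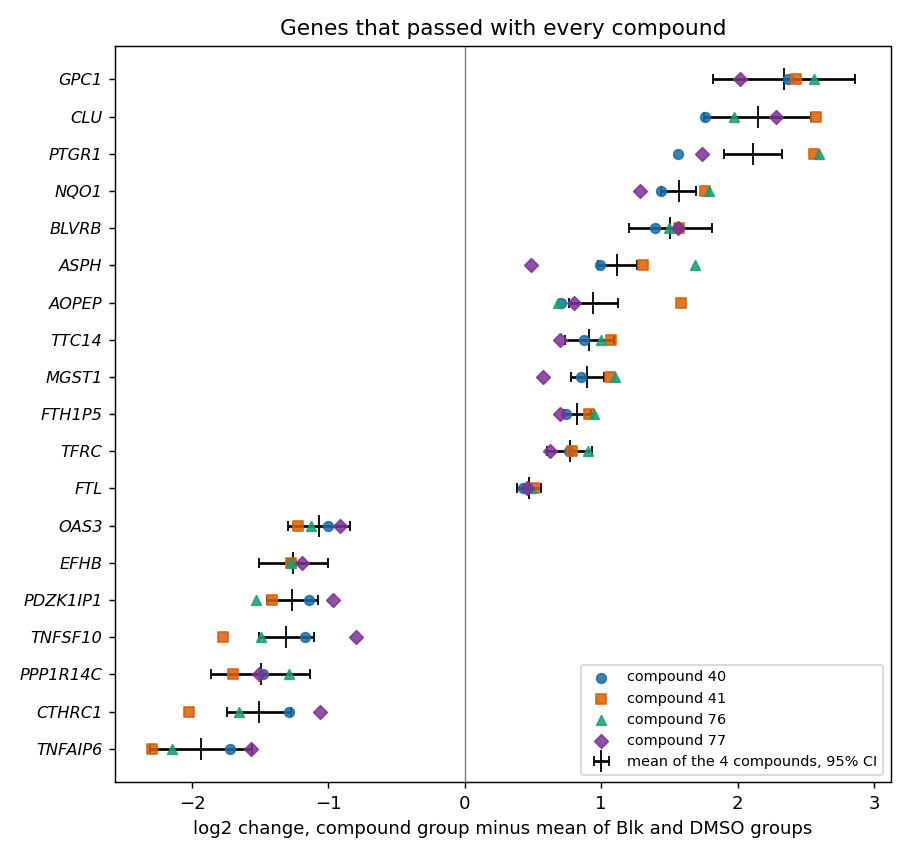
Change in log2 signal from the mean of the Blk and DMSO groups for the 19 genes that passed with every compound. Coloured points are the means of 3 arrays of each compound, and black bars are the mean of the 4 compounds with its 95% confidence interval. Rises run from 0.47 for FTL to 2.34 for GPC1 and falls from -1.07 for OAS3 to -1.93 for TNFAIP6, and compound 77 gave the smallest rise of ASPH, at 0.49.

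NQO1, a quinone reductase and a standard target of NRF2, had the strongest shared evidence. Its signals were 1526, 1572 and 1533 in Blk and 1774, 1813 and 1824 in DMSO, against 4909, 4332 and 4357 with compound 40, 5814, 5446 and 5711 with 41, 6152, 5413 and 5772 with 76, and 3307, 4537 and 4474 with 77. Every compound array lay above every control array, and the lowest of the 12 was replicate 1 of compound 77. The pooled log2 change was 1.57 ± 0.06 (SE, 12 against 6 arrays; 2.97-fold; adjusted p = 2.73e-12 in limma), and the shared adjusted p was 1.26e-07. All 3 probe sets of NQO1 that were kept passed the shared comparison, with pooled changes of 1.44 to 1.96.

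PTGR1, which reduces the double bond of leukotrienes, prostaglandins and reactive aldehydes, rose by unequal amounts. It had signals of 479, 387 and 444 in Blk and 400.3, 356 and 421 in DMSO, then 1101, 1265 and 1295 with compound 40 and 929, 1822 and 1539 with 77, and 2401, 2216 and 2706 with 41 and 2363, 2462 and 2653 with 76. No compound array fell among the controls, and compounds 41 and 76 lay above 40 and 77 on every array. The pooled change was 2.11 ± 0.10 (SE; shared adjusted p = 1.04e-05), and the compounds differed among themselves (adjusted p = 0.00122). MGST1, a membrane glutathione transferase, also rose most with 41 and 76, with changes of 0.85, 1.07, 1.10 and 0.57 for compounds 40, 41, 76 and 77, and compound 77 was 0.43 below the mean of the other 3 (adjusted p = 0.00736).

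BLVRB, which reduces biliverdin made from heme and also flavins, showed no called difference between compounds (adjusted p = 0.953). Its signals were 325 to 619 on the 6 control arrays, and 779 to 1833 on the 12 compound arrays. The groups did not overlap. The changes were 1.40, 1.57, 1.5 and 1.56 (pooled 1.51 ± 0.15, SE), and compound 77 minus the other 3 was 0.07 with a 95% interval of -0.33 to 0.48.

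Among iron-handling genes, TFRC and FTL passed the shared comparison against all 6 controls. TFRC, the receptor that brings in iron-loaded transferrin, had signals of 1982, 1872 and 1962 in Blk and 1668, 1698 and 1929 in DMSO, against 2850, 3361 and 3214 with compound 40, 3604, 3033 and 2953 with 41, 3698, 3372 and 3311 with 76, and 2164, 3398 and 3140 with 77. All 12 compound arrays exceeded the controls, replicate 1 of compound 77 by the least. The pooled change was 0.77 ± 0.08 (SE; 1.70-fold; shared adjusted p = 0.0209). The shared call was lost against DMSO alone (adjusted p = 0.0559), against Blk alone (0.179) and without replicates 2 and 3 of compound 40 (0.774), while the pooled call held against DMSO alone (0.84, adjusted p = 6.49e-05) and Blk alone (0.70, adjusted p = 0.000335). Of 4 kept probe sets of TFRC, 2 passed the shared comparison, 1 passed the pooled comparison only, and 1 had a pooled change of -0.08 (adjusted p = 0.92).

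FTL encodes the light chain of ferritin, which stores iron. It had signals of 6847, 6018 and 6783 in Blk and 7889, 7523 and 7754 in DMSO, and of 9179 to 10168 on the 12 compound arrays, with no overlap. The change was close to equal across the compounds, 0.43, 0.51, 0.49 and 0.46 (pooled 0.47 ± 0.04, SE; shared adjusted p = 0.00195), and compound 77 minus the other 3 was -0.02 (95% interval -0.13 to 0.10). FTL ranked between 2 and 14 from the top on the compound arrays and between 50 and 135 on the control arrays, and its pooled change was 0.57 on the signals as deposited. DMSO stood 0.24 ± 0.07 (SE) above Blk, and against DMSO alone the pooled change was 0.35 (adjusted p = 0.000978) and the shared comparison was not passed (adjusted p = 0.25), nor was it without replicates 2 and 3 of compound 40 (adjusted p = 0.103). A second FTL probe set rose by 0.88 (shared adjusted p = 2e-06). FTH1P5, a ferritin pseudogene whose probes may also read related ferritin transcripts, rose by 0.82 ± 0.05 (SE; shared adjusted p = 1.66e-05), with all 12 arrays above the controls.

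The largest shared changes were in genes that were dim in the controls. CLU, the secreted chaperone clusterin, went from 30.3 to 89.2 on the 6 control arrays to between 146 and 356 on the compound arrays, with changes of 1.76, 2.57, 1.97 and 2.28 (shared adjusted p = 0.00362). GPC1, a cell-surface heparan sulfate proteoglycan, had signals of 20.0, 20.0 and 56.1 in Blk and 37.2, 20.0 and 90.2 in DMSO, with 3 of the 6 at the floor, and of 118 to 219 with the compounds (pooled change 2.34 ± 0.25, SE). The groups of both genes were separate. Another CLU probe set also passed the shared comparison (2.01), while further ones rose by 0.27 and 0.36 and were not called (adjusted p = 0.501 and 0.124). Another GPC1 probe set was called in the pooled comparison (1.52) and did not pass the shared one (adjusted p = 0.095). NRCAM, a neuronal adhesion molecule, was at the floor on all 6 control arrays and at 24.1 to 267 on the compound arrays, which makes it at least 4.33-fold higher, but it did not pass with compound 77 (adjusted p = 0.122).

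ASPH, AOPEP and TTC14 completed the shared rise. ASPH, an enzyme of the endoplasmic reticulum that hydroxylates aspartate, moved least with compound 77: it had signals of 1712 to 2200 in the controls, 2316, 2730 and 3038 with 77, and 3472 to 6378 with the others. The compounds therefore all raised it without overlap, and still differed among themselves (adjusted p = 1.47e-05; compound 77 was 0.84 below the other 3, 95% interval -1.03 to -0.65). Of 8 kept probe sets of ASPH, the one given here alone passed the shared comparison. AOPEP, an aminopeptidase, rose by 1.58 with compound 41 and by 0.68 to 0.80 with the others. Another AOPEP probe set had a pooled change of 0.04 and was not called (adjusted p = 0.874). TTC14 rose by 0.91 ± 0.09 (SE) and did not differ between compounds by the test (adjusted p = 0.405).

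Among the shared falls, PDZK1IP1, a membrane protein of the proximal tubule, was the most stable. It had signals of 691, 534 and 479 in Blk and 523, 427 and 490.3 in DMSO, and of 216, 274 and 217 with compound 40, 176, 203 and 205 with 41, 162, 196 and 182 with 76, and 256, 275 and 266 with 77. Every compound array was below every control array. The pooled change was -1.26 ± 0.09 (SE; shared adjusted p = 0.00109), and both of its probe sets passed.

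TNFSF10, the death ligand TRAIL, and CTHRC1, a secreted collagen-associated protein, fell most with compound 41 and least with 77. TNFSF10 went from 3557, 3570 and 3249 in Blk and 3228, 2828 and 2499 in DMSO to 1904, 1130 and 1244 with compound 40, 849, 877 and 1035 with 41, 1068, 1057 and 1221 with 76, and 2158, 1737 and 1568 with 77. CTHRC1 went from 311 to 546 in the controls to between 86.1 and 258 with the compounds. Neither gene overlapped with the controls, both differed between compounds (adjusted p = 0.00698 and 0.0272), and the pooled changes were -1.31 ± 0.10 and -1.51 ± 0.11 (SE). CTHRC1 was also lower in DMSO than in Blk, by 0.48 ± 0.19 (SE), a difference that was not called.

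OAS3, an interferon-induced sensor of double-stranded RNA, had signals of 471, 422 and 457 in Blk, 379, 391 and 310.3 in DMSO and 155 to 282 with the compounds, again without overlap (pooled change -1.07 ± 0.11, SE; shared adjusted p = 0.0128). The other 3 shared falls were in dim genes. TNFAIP6, a secreted hyaluronan-binding protein, went from 60.2 to 174 in the controls to between 20.0 and 39.9, PPP1R14C, an inhibitor of protein phosphatase 1, from 52.0 to 79.8 to between 20.0 and 36.8, and EFHB from 36.5 to 62.9 to the floor on 11 of 12 arrays. EFHB was at the floor on every array of compounds 40, 41 and 76, so its change of -1.28 with each of these is a lower bound on the size. Another EFHB probe set had a pooled change of -0.01 and was not called (adjusted p = 0.984).

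**Figure D2:**
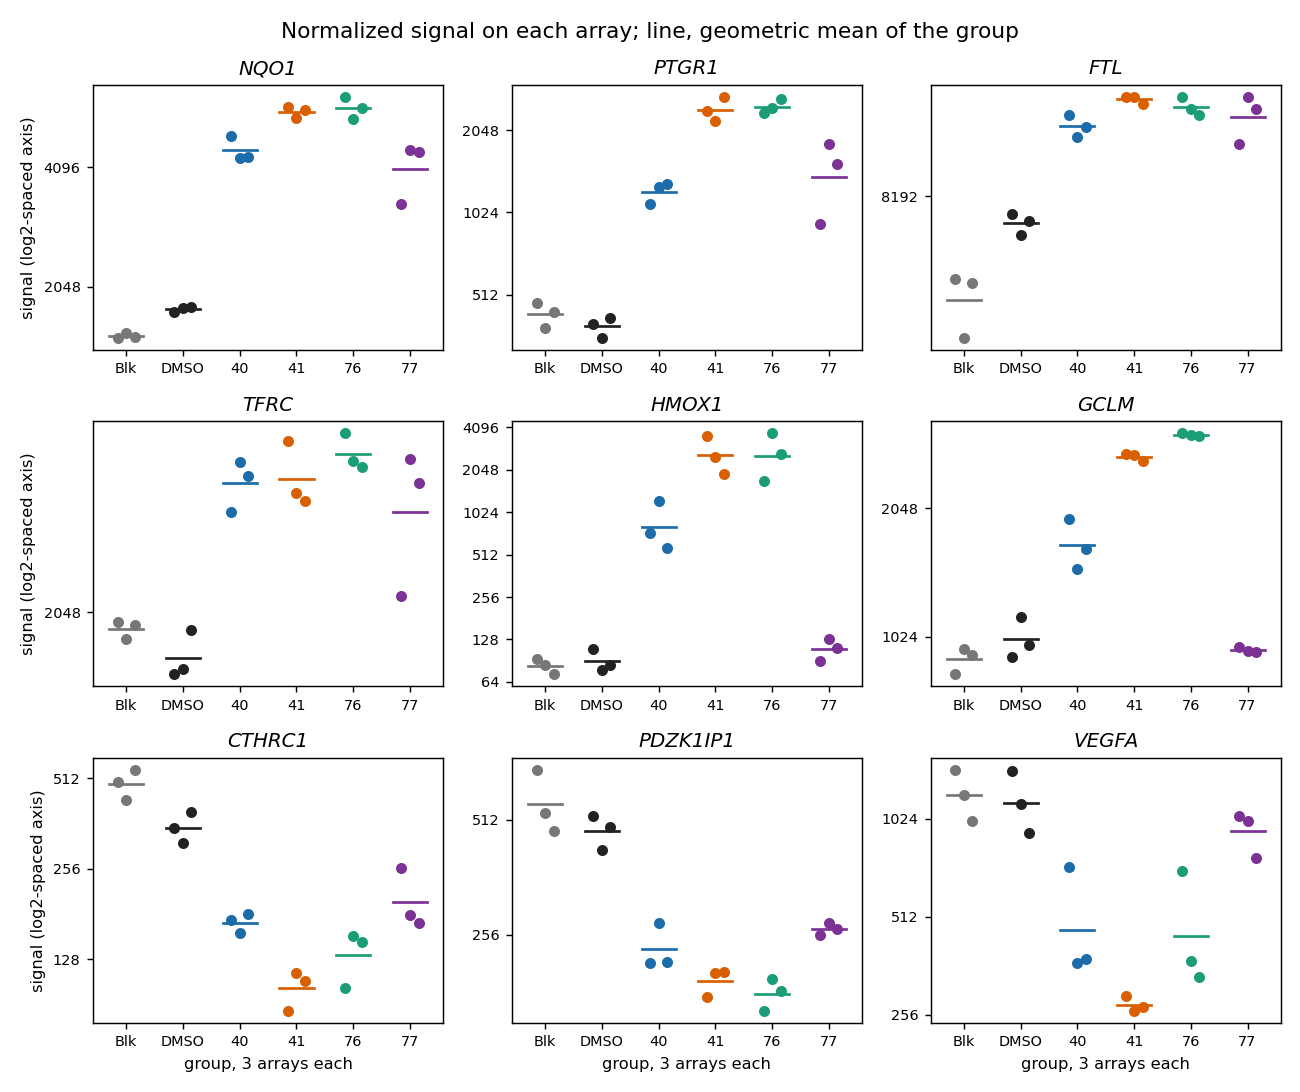
Normalized signal of 9 genes on each of the 18 arrays (vertical axis spaced by log2, one panel per gene), with 3 arrays per group and a line at the geometric mean. NQO1, PTGR1, FTL and TFRC are above the controls on all 12 compound arrays and CTHRC1 and PDZK1IP1 below, whereas compound 77 overlaps with the controls for HMOX1, GCLM and VEGFA.

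The shared calls depended on which controls and arrays were used. Against DMSO alone 7 of the 19 genes still passed the shared comparison, NQO1, PTGR1, FTH1P5, MGST1, BLVRB, CLU and PDZK1IP1, and against Blk alone 15 did, while all 19 were called in the pooled comparison with either control group alone (highest adjusted p 0.00109 against DMSO). Without replicates 2 and 3 of compound 40, 5 passed: NQO1, PTGR1, FTH1P5, MGST1 and PDZK1IP1. When each array was left out in turn, FTL, FTH1P5, NQO1, MGST1, PTGR1, BLVRB, PDZK1IP1, CLU and EFHB passed in 18 of 18 fits. TNFSF10 and CTHRC1 failed without replicate 2 or 3 of compound 77, and TTC14 without replicate 1 or 2. OAS3 failed without replicate 2 or 3 of 77 or 3 of 40, TNFAIP6 without any array of 77, and GPC1 without replicate 1 or 2 of Blk or 2 or 3 of 77. TFRC failed without replicate 1 or 2 of DMSO, 2 of Blk, or 2 or 3 of 77. AOPEP passed in 10 fits, ASPH in 5 and PPP1R14C in 3.

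Compound 77 was the weakest of the 4 most often. Among the 1463 genes called in the pooled comparison, the weakest of the 4 results belonged to compound 77 in 694, to 40 in 491, to 76 in 158 and to 41 in 120. The median size of change over these genes was 0.36 with compound 77, 0.45 with 40, 0.54 with 76 and 0.61 with 41. Without compound 77, 207 probe sets were shared by the other 3, compared with 36 for all 4.

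Targets of NRF2 moved up as a group with compounds 40, 41 and 76 and only in part with 77. Of 34 measured members of the list, 29 were higher in the pooled comparison, 0 were lower and 5 were not called, against 5.02% higher over all genes. The median change of the list was 0.995, against 0.014 over all genes tested. With single compounds the median was 0.86, 1.21, 1.38 and 0.22 for 40, 41, 76 and 77. Array by array, the list median ran from -0.02 to 0.05 on the control arrays, from 0.87 to 1.43 on the 9 arrays of compounds 40, 41 and 76, and from 0.01 to 0.36 on the arrays of 77, where replicate 1 was the lowest. NQO1, PTGR1, BLVRB and FTL were the 4 list members that passed the shared comparison.

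HMOX1, the heme oxygenase that opens the heme ring and releases its iron, separated compound 77 from the other 3. Its signals were 92.6, 83.7 and 72.5 in Blk and 109.5, 77.8 and 84.6 in DMSO, then 725, 1238 and 568 with compound 40, 3585, 2543 and 1925 with 41, and 1714, 3708 and 2632 with 76, but 90.7, 128 and 111 with 77. The arrays of compound 77 overlapped with the controls and those of the other 3 compounds did not. The changes were 3.22, 4.92, 4.89 and 0.34 (adjusted p = 0.63 for 77, 95% interval -0.16 to 0.84), and the compounds differed with an adjusted p of 9.78e-09.

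AKR1C3, an aldo-keto reductase of steroids and carbonyls, and GCLM, the modifier subunit of the enzyme that limits glutathione synthesis, divided the compounds in the same way. AKR1C3 had signals of 98.9 to 187 in the controls, 1052 to 3263 with compounds 40, 41 and 76, and 85.3, 106 and 80.6 with 77. GCLM had signals of 837 to 1142 in the controls, 1938, 1480 and 1645 with compound 40, 2740, 2730 and 2637 with 41, 3065, 3045 and 3027 with 76, and 968, 951 and 943 with 77. Compounds 40, 41 and 76 were outside the control range for both genes on every array, and 77 was not for GCLM. For GCLM the change with 77 was 0.00 (95% interval -0.18 to 0.17), and compound 77 minus the other 3 was -1.33 (95% interval -1.5 to -1.16). AKR1C3 with 77 was -0.62 (adjusted p = 0.0818).

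In all, 21 of the 34 members of the NRF2 list differed between compounds, against 2.22% of all genes (327). Of the list, 20 members were lower with compound 77 than with the mean of the other 3 and 0 were higher, while 156 genes (1.06%) were called in that contrast over all genes, 88 of them lower with 77 and 68 higher. This contrast was added after the data were seen. The aldo-keto reductases AKR1B10 (changes of 3.73, 4.4, 4.80 and 0.90) and AKR1C2 (2.27, 3.46, 4.55 and 0.43), the cystine transporter SLC7A11 (1.61, 2.84, 2.78 and 0.36) and GCLC, the catalytic subunit of glutathione synthesis (0.84, 1.61, 1.73 and -0.11), were all among them. The probes of AKR1C1, AKR1C2 and AKR1C3 may read each other's transcripts, since these genes are close copies. Of 7 regulators of the pathway, 2 were higher in the pooled comparison, against 5.02% of all genes. They were KEAP1 (0.54 ± 0.09, SE) and the small partner protein MAFG (0.75 ± 0.13, SE). With compound 77 neither was called (0.22 and 0.20, adjusted p = 0.549 and 0.725 in limma), although KEAP1 lay above the controls on all 12 compound arrays. With compounds 40, 41 and 76 the changes were 0.53 to 0.79 for KEAP1 and 0.88 to 0.99 for MAFG.

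**Figure D3:**
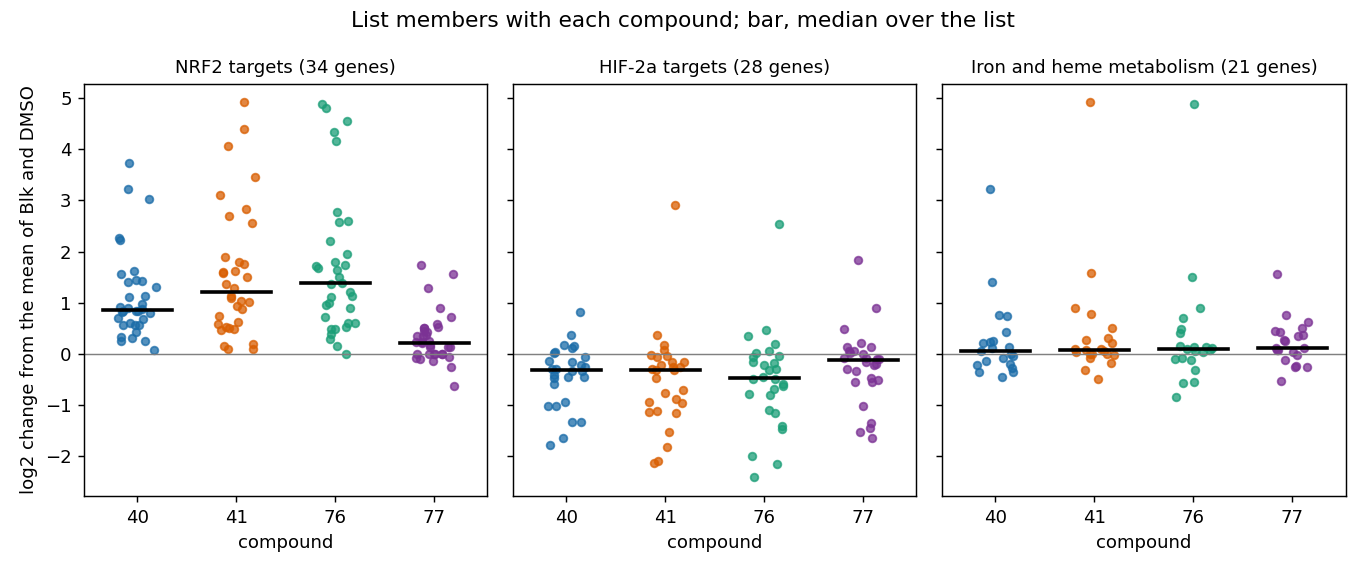
Change in log2 signal from the mean of Blk and DMSO for each measured gene of 3 lists (34 NRF2 targets, 21 genes of iron and heme metabolism and 28 HIF-2a targets), by compound. Points are genes, each the mean of 3 arrays, and black bars are list medians. The median of the NRF2 targets falls from 1.38 with compound 76 to 0.22 with 77, while that of iron and heme genes stays between 0.06 and 0.12.

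The wider iron and heme list did not move as a body. Of 21 measured genes 5 were higher, HMOX1, BLVRB, ALAS1, TFRC and FTL, 2 were lower and 14 were not called, with a median of 0.06. The shares over all genes were 5.02% higher and 4.9% lower. The list held 24 genes, and FTH1, the ferritin heavy chain, and IREB2 were among those not measured by a kept probe set that names 1 gene. Of the 36 probe sets that passed the shared comparison, 6 have no gene name in the platform annotation. Their pooled changes ran from -2.18 to 1.67, and which genes they read was not determined. ALAS1, the first enzyme of heme synthesis, had signals of 207 to 248 in the controls and 301 to 466 with the compounds, without overlap. Its changes were 0.75, 0.90, 0.69 and 0.77, called with each compound taken alone, yet the shared adjusted p was 0.0544. ACO1, which encodes an iron regulatory protein, was not called (0.05, 95% interval -0.18 to 0.28). The 8 measured genes of metallothioneins and zinc handling had a median of -0.46, and 5 of them were lower, all of them metallothioneins, small proteins that bind zinc and copper: MT1F by -0.82 ± 0.12 and MT1H by -0.74 ± 0.10 (SE), with the other 3 between -0.49 and -0.45. A second MT1F probe set passed the shared comparison (-0.85, -1.01, -0.99 and -0.79; adjusted p = 0.00219), while with compound 77 the 95% intervals of MT1H (-0.54 to 0.06) and MT2A (-0.39 to 0.09) included 0. Metallothionein genes are close copies, so their probe sets may share signal.

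EPAS1, whose translation the compounds are described as inhibiting, was not called at the mRNA level. Its signals were 571, 484 and 427 in Blk and 556, 402 and 434 in DMSO, against 535, 418 and 386 with compound 40, 542, 250.1 and 314 with 41, 445, 261 and 253 with 76, and 517, 463 and 404 with 77. Of the 12 compound arrays 5 were below all controls, and they belonged to compounds 40, 41 and 76. The pooled change was -0.30 (95% interval -0.61 to 0.00; adjusted p = 0.251), and its second probe set had the same change. With single compounds the changes of EPAS1 were -0.10, -0.44, -0.62 and -0.05 for 40, 41, 76 and 77. The 95% intervals, which are not adjusted for the number of genes, excluded 0 for 41 (-0.88 to -0.01) and 76 (-1.06 to -0.19). VHL (-0.19) and ARNT, the partner subunit of HIF-2a (0.21), were not called, and the protein level of HIF-2a was not measured by these arrays. HIF1A had 1 probe set, not kept, with a highest deposited signal of 32.0.

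Known targets of HIF-2a fell in part. Of 28 measured, 13 were lower and 1 was higher, against 4.9% and 5.02% over all genes, with a list median of -0.34. None passed the shared comparison, and 7 were lower against DMSO alone (1.59% over all genes). The list median was -0.21 to 0.15 on the control arrays, -0.59 to -0.15 on those of compounds 40, 41 and 76 and -0.25 to -0.09 on those of 77, so the arrays of 77 overlapped with the range of the controls. Without replicates 2 and 3 of compound 40, 10 of the 28 were lower.

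VEGFA, the blood vessel growth factor, and CCND1, cyclin D1, were lower with compounds 40, 41 and 76 taken over all their arrays. VEGFA had signals of 1449, 1217 and 1006 in Blk and 1436, 1140 and 926 in DMSO, against 731, 368 and 379.6 with compound 40, 293, 263 and 269.8 with 41, 706, 376 and 334 with 76, and 1048, 1011 and 779 with 77. CCND1 had signals of 664 to 959 in the controls, 288 to 553 with compounds 40, 41 and 76, and 739.9, 809 and 888 with 77. Over all 6 controls, compound 77 overlapped with them in both genes and the other 3 compounds did not. The changes of VEGFA were -1.33, -2.10, -1.40 and -0.33 (95% interval for 77 -0.80 to 0.14), those of CCND1 -1.03, -1.15, -0.78 and 0.05, and compound 77 was 1.28 and 1.03 above the mean of the other 3 (adjusted p = 0.00301 and 0.00243). With replicate 1 of compound 40 alone, the changes with 40 were -0.69 and -0.50 and were not called (adjusted p = 0.481 and 0.511).

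Other HIF-2a targets were lower with compound 77 as well. EGLN3, an oxygen-sensing prolyl hydroxylase, changed by -0.94, -1.14, -1.48 and -1.54, IGFBP3, a binding protein of insulin-like growth factors, by -1.33, -2.13, -2.42 and -1.65, and ITPR1, a calcium channel of the endoplasmic reticulum, by -1.77, -1.82, -2 and -1.46. All 12 compound arrays of ITPR1 were below the controls, and 11 of 12 for EGLN3 and for IGFBP3. The between-compound test did not call any of these 3 (adjusted p = 0.632, 0.405 and 0.795). SLC2A1, the glucose transporter, fell by 0.41 ± 0.11 (SE) in the pooled comparison, and by itself was called with compound 76 alone.

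ANGPTL4, a secreted regulator of lipoprotein lipase, was the 1 target that rose. Its signals were 20.9, 67.7 and 20.0 in Blk and 20.0, 73.4 and 20.0 in DMSO, against 24.1, 108 and 61.4 with compound 40, 213, 268 and 218 with 41, 114, 269 and 188 with 76, and 48.5, 182 and 146 with 77. Compounds 41 and 76 were above the controls on every array, while 40 and 77 were not. The pooled change was 2.03 ± 0.37 (SE; adjusted p = 0.00137), with 3 of 6 control arrays at the floor, and replicate 2 was the highest of its group in all 6 groups.

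The arrays named WT8 and PRC3, 3 of each, gave a comparison whose group means share no array with the pooled comparison. These names are widely used for 786-O sublines with restored VHL and with empty vector, which the labels do not state. The spread for this test was estimated on 24 arrays, the compound and control arrays among them. Calls in both comparisons are therefore not independent, and how far the shared spread adds to their overlap was not tested. In WT8, 159 genes (1.08%) were at least 2-fold lower and called, and 221 (1.5%) were at least 2-fold higher. Of the 159, 78 were also lower with the compounds (49.1%, against 4.9% over all genes) and 5 were higher (3.14%), with a median of -0.47. Of the 221, 33 were higher (14.9%) and 19 were lower (8.6%), with a median of 0.08. Without replicates 2 and 3 of compound 40, 71 of the 159 were lower (44.7%). Against DMSO alone 43 were (27%, against 1.59% over all genes), and without WT8 replicate 3, whose ACTB 3 prime over 5 prime ratio was 2.37, 66 of 160.

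Several HIF-2a targets were low in WT8 too. EGLN3 changed by -4.16 there, CCND1 by -3.25, ITPR1 by -3.09 and VEGFA by -2.64, against -1.27, -0.73, -1.76 and -1.29 with the compounds, and the difference between these sizes was not tested. ANGPTL4 was lower in WT8 (-2.32, adjusted p = 0.0251) and higher with the compounds. IGFBP3 changed by -0.26 in WT8, which was not called.

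**Figure D4:**
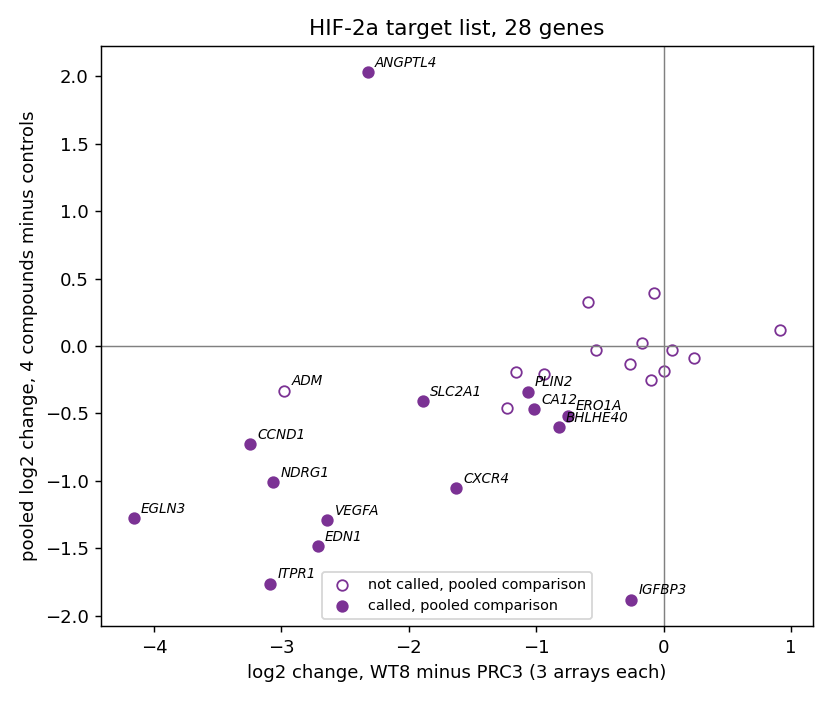
Pooled log2 change with the 4 compounds (vertical) against the log2 change in WT8 from PRC3 (horizontal) for the 28 measured HIF-2a targets. Filled points were called in the pooled comparison. Among these, 13 lie below 0 on the vertical axis and ANGPTL4 lies at 2.03, while EGLN3 is the farthest left at -4.16.

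Among genes bright enough for the rule that chose names, the largest falls outside the shared set were in SEMA6A and LINC02274. SEMA6A is a transmembrane semaphorin of axon guidance, and LINC02274 is a long non-coding RNA. SEMA6A had signals of 423, 394 and 555 in Blk and 527, 453 and 489 in DMSO, against 271, 105 and 142 with compound 40, 68.1, 45.5 and 68.0 with 41, 97.3, 34.8 and 81.5 with 76, and 158, 43.2 and 80.4 with 77. All 12 were below the controls, and replicate 1 was the highest of the 3 with compounds 40, 41, 76 and 77. The pooled change was -2.48 ± 0.25 (SE; adjusted p = 2.23e-06), it was called with each compound alone, and the shared adjusted p was 0.122. ENO2, the neuronal enolase and a glycolytic enzyme, fell likewise on all 12 arrays, from 203 to 303 down to between 42.8 and 156 (shared adjusted p = 0.0619). In the list of guidance and neuronal-type genes 6 of 17 were lower and 1, NRCAM, was higher, against 4.9% and 5.02% over all genes.

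Cell cycle genes were lower in moderate amounts. Of 23 S phase genes 11 were lower and 0 higher (median -0.33), and of 25 mitosis genes 14 were lower and 0 higher (median -0.27). The share lower over all genes was 4.9%. MCM7, a subunit of the replicative helicase, had signals of 881 to 1076 in the controls and 311 to 717 with the compounds, without overlap (-0.89 ± 0.11, SE). KIF20A, a kinesin of cell division, fell by 0.61 ± 0.11 (SE). The medians by compound were -0.18, -0.50, -0.24 and -0.21 for S phase and -0.20, -0.41, -0.26 and -0.12 for mitosis. The counts of lower S phase and mitosis genes fell to 1 and 6 against DMSO alone and to 4 and 4 with median scaling of the arrays. Lower calls over all genes fell as well, from 723 to 234 against DMSO alone and to 496 with median scaling.

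For the 2 lists that follow, the shares over all genes were 4.9% lower and 5.02% higher, with 1.59% lower against DMSO alone. In the interferon list 6 of 19 genes were lower, 1 was higher and 12 were not called. MX1, an antiviral GTPase, fell by 1.45 ± 0.20 (SE). IFIT2 rose by 0.99 ± 0.22 (SE) in the pooled comparison, with a change of 0.00 for compound 40. The list median was -0.55 to 0.38 on the control arrays, the lowest being replicate 1 of DMSO and of Blk, and -0.82 to 0.19 on the compound arrays, so the 2 sets overlapped. Against DMSO alone 2 of the 19 were lower. In the NF-kB list 5 of 19 were lower and 14 were not called, with a median of 0.04 for compound 77 and of -0.43 to -0.38 for the others, and 2 were lower against DMSO alone, 3 without replicates 2 and 3 of compound 40. Among the 5 were the cytokine IL1B (-1.20, at the floor on 9 of 12 compound arrays) and TNFAIP3, a feedback inhibitor (-0.72). A second IL1B probe set had a pooled change of -0.18 and was not called (adjusted p = 0.648 in limma). Of the 19, 4 were called higher with compound 77 than with the mean of the other 3, against 68 of 14741 over all genes.

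Other stress pathways moved in part, and their counts stand beside 5.02% higher and 4.9% lower over all genes. Of 15 heat shock genes 5 were higher, led by the co-chaperone DNAJB4 (1.03 ± 0.11, SE), and of 19 p53 targets 4 were, led by the cell cycle inhibitor CDKN1A (1.25 ± 0.22, SE). The medians by compound, for 40, 41, 76 and 77, were 0.15, 0.45, 0.12 and 0.10 for heat shock and 0.01, 0.70, 0.04 and 0.55 for p53 targets. Of 20 autophagy and lysosome genes 6 were higher, among them the protease CTSL (0.82) and the receptor SQSTM1 (0.81), which is also an NRF2 target. In the same list 1 gene, LAMP2, was lower by its brightest probe set (-0.49). Its further probe sets had pooled changes of 0.04 to 0.24 and were not called. Of 18 endoplasmic reticulum chaperones 4 were lower, with the foldase PDIA4 at -0.35, and the ATF4 list was split with 2 higher, SLC7A11 among them, and 3 lower, led by the pseudokinase TRIB3 at -1.06. Cholesterol synthesis had 3 of 19 lower, with HMGCS1 at -1.11. Against DMSO alone, 3 heat shock, 2 p53, 4 autophagy, 1 chaperone and 0 cholesterol genes were called in these directions. With that control, 1.74% of all genes were higher and 1.59% lower. Proteasome, respiratory chain and translation genes had 2, 1 and 1 higher and 0, 2 and 1 lower of 24, 22 and 18. Glycolysis had 2 higher and 5 lower of 21, immediate early genes 3 and 3 of 18, the TGF-beta response 2 and 1 of 14 and the aryl hydrocarbon receptor list 1 and 1 of 7.

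**Figure D5:**
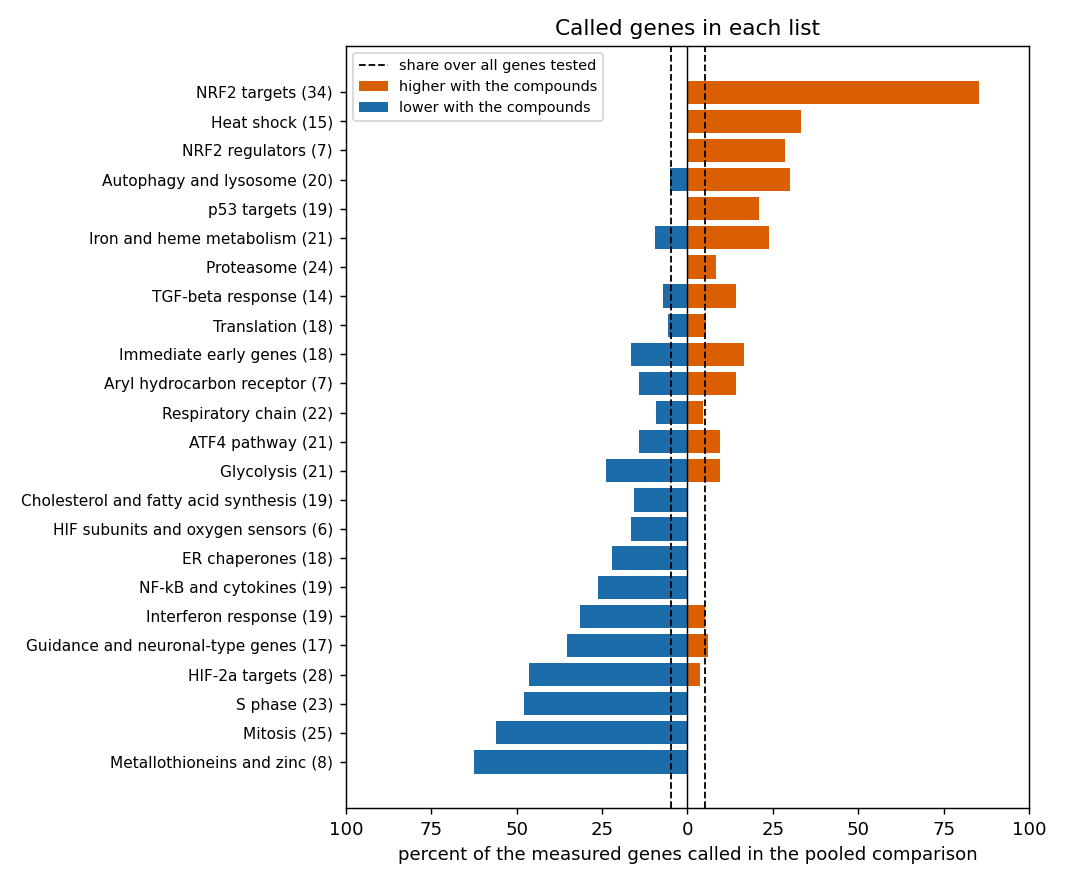
Percent of the measured genes of each list that were called higher (right, orange) or lower (left, blue) in the pooled comparison, with the number measured in brackets. Dashed lines mark the shares over all 14741 genes, 5.02% and 4.9%. NRF2 targets stand farthest to the right, with 29 of 34, and metallothioneins farthest to the left, with 5 of 8.

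Promoter sequences of the named genes were searched to show which known control elements lie near their starts, in the RefSeq windows of GRCh38.p14 from 250 bases before to 50 after the start. Windows were found for 90 of the 117 named genes and 11792 of the 14741 tested. The antioxidant response element, where NRF2 binds, was searched as TGACNNNGC, the hypoxia response element as ACGTG, the ATF4 element as TGATGNAA and the metal response element as TGCACNC or TGCGCNC, on both strands, and matches of different elements may overlap. The hypoxia element was in 12 of 24 windows of HIF-2a targets (50%), against 25.4% of all, but in 18.3% of the windows of genes at least 2-fold lower. The antioxidant element was in 7 of 26 windows of NRF2 targets (26.9%), against 15.1% of all, in 10.7% of those of genes at least 2-fold higher, and in 0 of the 9 windows of the genes with a shared rise. The ATF4 element was in 2.27% of all windows and the metal element in 37.1%. A match is a description of letters and no evidence of binding, and its absence says only that the letters are not in this window.

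The 8 stretches shown put a match beside the response of its gene, with the matching letters in capitals, written 5′ to 3′ on the strand of the gene (a match on the opposite strand appears as its reverse complement). GCLM carries the antioxidant element and rose with 3 compounds. ENO2, EDN1 and PDZK1IP1 carry the hypoxia element and were lower, while TFRC, MGST1 and FTL carry the same letters and were higher, and MT2A, which was lower, carries the metal element and, elsewhere in its window, also an antioxidant match. The positions are chr1:93909448-93909472 (minus strand) for GCLM, chr12:6914454-6914474 (plus) for ENO2, chr6:12287918-12287938 (plus) for EDN1, chr1:47190102-47190122 (minus) for PDZK1IP1, chr3:196082166-196082186 (minus) for TFRC, chr12:16347567-16347587 (plus) for MGST1, chr19:48965290-48965310 (plus) for FTL and chr16:56608522-56608544 (plus) for MT2A.
GCLM: cgatttctGCTTAGTCAttgtcttc
ENO2: gcgctcgtACGTGcgcctccg
EDN1: tggctggcCACGTtttgtgtt
PDZK1IP1: agggagggCACGTtctctccg
TFRC: gcgagcgtACGTGcctcagga
MGST1: ggctttaaACGTGggagggct
FTL: gccctagcCACGTcccctcgc
MT2A: ggggctttTGCACTCgtcccggc
Of these genes, EDN1, the vasoconstrictor endothelin 1, fell by 1.48 ± 0.30 (SE) and MT2A by 0.48 (adjusted p = 0.000741).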

How the data were processed

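Biotin-labelled RNA of each of 26 samples was hybridised to its own array, following the labels' protocols. The authors deposited linear signal intensity per probe set, computed with MAS5 per the submitters' processing notes. The genome build is not given in the sources used here, nor are the MAS5 version and scaling target. Limits of 20 and 16000 and a variation filter are named in the labels, but values below 20 and the 54613 other than control probe sets remain in the table.

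The intensities, without 62 control probe sets, were quantile normalized over 26 arrays, limited to 20 and 16000, and turned into log2 values. Probe sets were kept (33539) if at least 3 of the 18 arrays reached their own median and exceeded the floor. Names came from the platform annotation, checked against RefSeq (41037 of 41091 found); probe sets with several genes stayed unnamed. limma 3.58.1 in R 4.3.3 (lmFit, eBayes with a trend) fitted 6 groups of 3 with 12 residual degrees of freedom. Tests are two-sided with Benjamini-Hochberg adjustment. The shared comparison took the largest of the 4 compound p-values, or 1 where signs differed. WT8 against PRC3 was fitted on 24 arrays. The scripts were tested on simulated data.

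Genes were named by rule: up to 15 rises and 15 falls, from shared genes whose brighter side reached the 70th percentile of signal, filled from the pooled comparison where fewer than 5 passed; up to 4 called members per list; 14 set genes; and up to 8 and 5 genes from the test between compounds. Members, rule and the 24 lists were chosen with earlier results of these data known. Some items are not reported here. The number of arrays limits the precision. Single control groups, arrays and compounds left out, other scalings and filters, and a replicate block were tried as alternatives. Those with 1 control group for lists and shared genes, compound 77 against the other 3, and single genes by compound without 2 arrays or with the block, were chosen after seeing the data.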

Additional observations from a re-analysis of the deposited data

Results flagged for a closer look

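In 5 genes 1 compound gave a called rise and another a called fall from the same controls, and the compounds differed by the F test in limma. TSPAN13, a tetraspanin, changed by -0.03, -0.64, 0.33 and -0.42 with compounds 40, 41, 76 and 77 (adjusted p = 1.94e-05 between compounds), with signals of 836, 824 and 1001 with 41 and 1620, 1766 and 1812 with 76 around control signals of 1320 to 1464. ROMO1, a mitochondrial membrane protein, changed by 0.12, 0.37, -0.68 and 0.12 (adjusted p = 7.03e-05). LPP, a protein of focal adhesions, changed by -0.69, 0.66, 0.17 and -0.04 (adjusted p = 0.000395). With replicate 1 of compound 40 alone its change with 40 was -0.31 and not called (adjusted p = 0.614). NOTCH2NLA, a member of a family of near-identical copies whose probes may share signal, changed by -0.51, 0.42, -0.17 and -0.03 (adjusted p = 0.0013), and with replicate 1 of compound 40 alone its change with 40 was -0.44 and not called (adjusted p = 0.31). FUNDC2, a mitochondrial outer membrane protein, changed by 0.14, 0.42, -0.38 and 0.02 (adjusted p = 0.00425). A second FUNDC2 probe set changed by -0.86, -0.39, -0.77 and -0.90 and did not differ between compounds by the F test (adjusted p = 0.81). Another LPP probe set also differed between compounds (adjusted p = 0.0125), with -0.18 for compound 40 and 0.80 for 41. Further LPP probe sets did not (adjusted p = 0.236 to 0.958). In each of the 5 the pooled change was not called.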

How the results depend on the processing

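The pooled comparison called 2745 probe sets (1248 higher, 1497 lower), the shared one 36 (23 and 13), the one between compounds 580, DMSO against Blk 0 and WT8 against PRC3 1597. Median scaling gave 1772 pooled (723 higher, 1049 lower) and 287 between compounds, and split the shared calls into 13 higher and 14 lower. With no filter on dim probe sets, 310 were called between compounds and 3 between DMSO and Blk. With 24 arrays in the fit, 21 were shared and 344 differed between compounds. Without both differently made arrays of compound 40 these were 14 and 346. DMSO alone as the control gave 861 pooled and 16 shared (15 higher, 1 lower), and Blk alone 1277 pooled. Leaving out compound 40 gave 97 shared and 341 between compounds; leaving out 41, 1801 pooled and 355 between; leaving out 77, 207 shared and 290 between. With the 6 group means as samples, so that the spread is that between compounds, 431 were called in the pooled comparison. USP16, at -0.02 in the pooled comparison, changed to 0.28 without compound 76.

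Leaving out each array in turn gave 1945 to 3196 pooled, 21 to 50 shared, 309 to 1008 between compounds, 0 to 3 between DMSO and Blk, the 3 without Blk replicate 3, and 1006 to 1869 in WT8 against PRC3, the lowest without WT8 replicate 2. The 21 came without replicate 2 or 3 of compound 77. Between compounds 1008 came without compound 40 replicate 1, and 378, 374, 362 and 309 without 41 replicate 1, 77 replicate 2, 41 replicate 3 and 77 replicate 3. Of 107 named genes called in the pooled comparison, 91 were called in all 18 of these fits. Other settings cost more of these calls: 67 were lost with the 6 group means as samples, 33 against DMSO alone and 25 against Blk alone.

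With the replicate number as a block, 4290 were pooled, 167 shared and 1915 between compounds, and 2745 of 2745 and 36 of 36 of the first calls remained. By list, the block moved the genes called lower from 3 to 12 in cholesterol synthesis and from 6 to 10 in the interferon response, and those called higher from 2 to 9 in the proteasome, from 5 to 8 in heat shock and from 4 to 7 among p53 targets, with 740 to 1198 higher and 723 to 1080 lower over all genes. With the block compound 77 was called for AKR1C3 (-0.62, adjusted p = 0.0254) and not for VEGFA (-0.33, adjusted p = 0.206). Within each replicate number, compound 77 had a lower VEGFA signal and a lower HIF-2a list median than both controls. Same-numbered arrays correlated at 0.05 to 0.30, over 0.1 in 35 of 45 pairs, and 18 of 18 arrays correlated best with their own number, a hint from the data, since no label says what a number marks. The cause of these movements was not tested. Genes close to the floor of 20 give lower bounds on a change.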
